A study of Homo sapiens with 12 samples.

Results

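The effect of RBMX overexpression on total RNA was described across protein-coding genes in 6 of the 12 libraries of the series, 3 from HEK293 cells given RBMX and 3 from control cells. HEK293 cells are a long-established line from human embryonic kidney. The RBMX group was transiently transfected by lipofection with the plasmid pCMV6-HIS-HA-RBMX (2 μg), which expresses RBMX with His and HA tags from a viral promoter, and the control group received the mock empty vector. Both groups therefore carried plasmid DNA and transfection reagent, no untransfected cells were included, and the share of cells that took up plasmid is not given in the sources used here. RNA was extracted 48 h after transfection from cells treated with cycloheximide, which holds ribosomes on their messages. Nuclei were removed by centrifugation, the lysate was run on a sucrose gradient, and total RNA was made by pooling a share of every gradient fraction, so that "total" here means the RNA of the cytoplasmic lysate. The other 6 libraries hold the polysomal RNA of the same cultures and are used below only beside the total RNA values. Each library was made from 500 ng of RNA with the TruSeq RNA Sample Prep Kit of Illumina.

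RBMX, also called hnRNP G, is a nuclear RNA-binding protein with an RNA recognition motif. It takes part in alternative splicing with SR and TRA2 proteins, binds methylated RNA and has been linked to chromosome cohesion and the DNA damage response. The question put to the total RNA was which transcripts change in level when RBMX is raised, as opposed to those that change in polysome loading. Type I and type III interferons, which form the main theme below, are secreted proteins whose receptors signal through STAT2 and IRF9, among other factors, to a large set of antiviral genes. The promoters of these genes often hold an interferon-stimulated response element.

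Levels are in FPKM, the deposited measure of sequenced fragments scaled for transcript length and library size. Of 25268 gene symbols, 18943 belonged to protein-coding genes, 2038 to small RNA genes (MIR, SNORD, SNORA, SCARNA, RNU) that are set aside here, and 3159 to other genes, while 1128 could not be assigned to a class. The 12970 protein-coding genes with a mean of at least 0.5 FPKM over the 12 libraries were tested. Tests were made with limma on log2(FPKM + 1). The Benjamini-Hochberg adjustment covered all 14676 genes of every class that passed the same minimum. A log2 fold change is given on this log2(FPKM + 1) scale, which understates the change of genes near 1 FPKM, and SE is its standard error. Depth is unknown, so no counting interval could be given. Summed protein-coding FPKM was alike in the 6 libraries (500638 to 534596), whereas small RNA genes held between 55.3% and 72.3% of all FPKM. Of 13 HEK293 markers, 12 were at 1 FPKM or more in all 6 libraries, and of 15 markers of blood, liver, fibroblast, endothelial and glial cells, 12 stayed under 0.5 FPKM in all of them. In bulk RNA, a change in the number of expressing cells and a change in RNA per cell cannot be told apart.

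In both groups replicate 3 stood apart from the other libraries. Spearman's correlation over the 12970 protein-coding genes was 0.997 between control replicates 1 and 2 and 0.997 between RBMX replicates 1 and 2. Control replicate 3 correlated with the other controls at 0.983 and 0.980, and RBMX replicate 3 with the other RBMX libraries at 0.992 and 0.993. On the log2(FPKM + 1) scale, control replicate 3 held 177 genes at least 1 unit below the mean of the other 2 controls. Another 15 lay at least 1 unit above that mean. On the same scale, RBMX replicate 3 held 98 genes at least 1 unit below the mean of the other 2 RBMX libraries. Only 1 gene lay at least 1 unit above that mean. Genes near or below 1 FPKM can differ more in FPKM without being counted. These genes were not spread evenly over functions. The 98 of 12970 genes low in RBMX replicate 3 included 46 of 64 interferon-stimulated genes. The 177 of 12970 genes low in control replicate 3 included 11 of 18 glycolysis genes and 6 of 14 heat shock genes. They also included 11 of the same 64 interferon-stimulated genes.

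RBMX itself checked the labels. Its FPKM was 147, 145 and 108 in the control libraries and 1731, 2073 and 1460 in the RBMX libraries. The groups did not overlap, and the lowest RBMX library was still far above every control. By mean FPKM this was 13.2-fold, from 133 ± 22.2 to 1755 ± 307 (SD, n = 3 each), with a log2 fold change of 3.71 (SE 0.19, limma adjusted p = 0.0027). An exact two-sided permutation test gave p = 0.1, the smallest value that 3 against 3 libraries allow. RBMX (chrX:136848004-136880764, minus strand, GENCODE 29 on GRCh38) was past the threshold in all 24 alternative fits. RBMX replicate 3 had the lowest RBMX level of its group. FPKM per gene does not separate plasmid from chromosomal transcripts.

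RBMXL1, a paralog of RBMX that arose by retrotransposition and encodes a nearly identical protein, went from 17.1, 16.1 and 10.4 FPKM to 554, 630 and 443 FPKM (log2 fold change 5.14, SE 0.22, limma adjusted p = 0.0015). How fragments shared by RBMX and RBMXL1 were divided is not given in the sources used here, so the RBMXL1 value is uncertain. RBMX2, a spliceosome component on the X chromosome that shares the name but little of the sequence, was level at 20.5, 20.1 and 19.5 FPKM in controls and 20.2, 21.7 and 20.4 FPKM with RBMX (log2 fold change 0.05, limma adjusted p = 0.66).

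In all, 11 protein-coding genes passed an adjusted p of 0.05, of which 9 rose (0.0694% of the genes tested) and 2 fell (0.0154%). Besides RBMX and RBMXL1, the genes that rose were KRT17, NPC1L1, IL4I1, CATSPERD, TEKT2, PCBP4 and SERTAD1, and HIST1H2AL and NKAIN2 fell. After quantile normalization 6 rose and 3 fell. At an unadjusted p under 0.05 there were 1101 higher genes (8.49%) and 1377 lower genes (10.6%), with 871 higher and 1690 lower after quantile normalization. Libraries of the groups did not overlap for 1671 genes that were higher with RBMX (12.9%) and for 1987 that were lower (15.3%). The median log2 fold change of all protein-coding genes was 0.0045.

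KRT17, a type I keratin of stressed and wounded epithelium, rose with narrow spread in both groups. Its FPKM was 33.9, 33.3 and 33.3 in controls and 79.2, 84.3 and 93.3 with RBMX. The control libraries were nearly identical and the groups were far apart (2.55-fold by mean FPKM, log2 fold change 1.32, SE 0.07, limma adjusted p = 0.0037). KRT17 passed in 23 of 24 alternative fits, and its gene family includes close copies whose fragments may be shared.

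PCBP4, an RNA-binding protein of the poly(rC)-binding family, measured 8.26, 7.52 and 7.83 FPKM in controls and 12.5, 12.2 and 12.7 FPKM with RBMX (log2 fold change 0.60, SE 0.06, limma adjusted p = 0.045). SERTAD1, a regulator of CDK4 and E2F activity, measured 28.9, 27.9 and 28.2 FPKM against 43.0, 42.3 and 39.9 FPKM (log2 fold change 0.54, SE 0.05, limma adjusted p = 0.043). In both genes the difference was small and the replicates of each group lay close together. PCBP4 lost its call whichever single library was left out, with the highest adjusted p at 0.32. SERTAD1 lost its call in 8 of 24 alternative fits, also with a highest adjusted p of 0.32.

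The other 4 genes that rose averaged under 0.5 FPKM over the 6 control libraries of both fractions. They reached the minimum of 0.5 FPKM only through the RBMX libraries, where they are high, so only 5 of the 9 genes that rose were tested independently of that rise. NPC1L1, the intestinal cholesterol transporter, went from 0.432, 0.426 and 0.482 FPKM to 2.2, 2.37 and 1.66 FPKM (limma adjusted p = 0.035). IL4I1, a secreted amino acid oxidase of immune cells, went from 0.367, 0.389 and 0.215 FPKM to 1.68, 2.04 and 1.47 FPKM (limma adjusted p = 0.038). The sperm calcium channel subunit CATSPERD went from 0.175, 0.119 and 0.189 FPKM to 1.15, 1.36 and 1.07 FPKM (limma adjusted p = 0.0095). The cilium protein TEKT2 went from 0.132, 0.140 and 0.137 FPKM to 1.01, 1.23 and 0.983 FPKM (limma adjusted p = 0.0069). With no minimum set, their limma adjusted p lay between 0.0077 and 0.036. In alternative fits the call was lost in 7 of 24 for NPC1L1, 9 of 23 for IL4I1, 4 of 23 for CATSPERD and 3 of 23 for TEKT2. How many fragments lie behind such low levels is unknown. NKAIN2, which encodes a membrane protein that interacts with the sodium pump, fell from 2.14, 2.24 and 2.17 FPKM to 1.30, 1.21 and 1.22 FPKM (log2 fold change -0.51, SE 0.04, limma adjusted p = 0.029). NKAIN2 lost its call in 6 of 24 alternative fits.

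**Figure D1:**
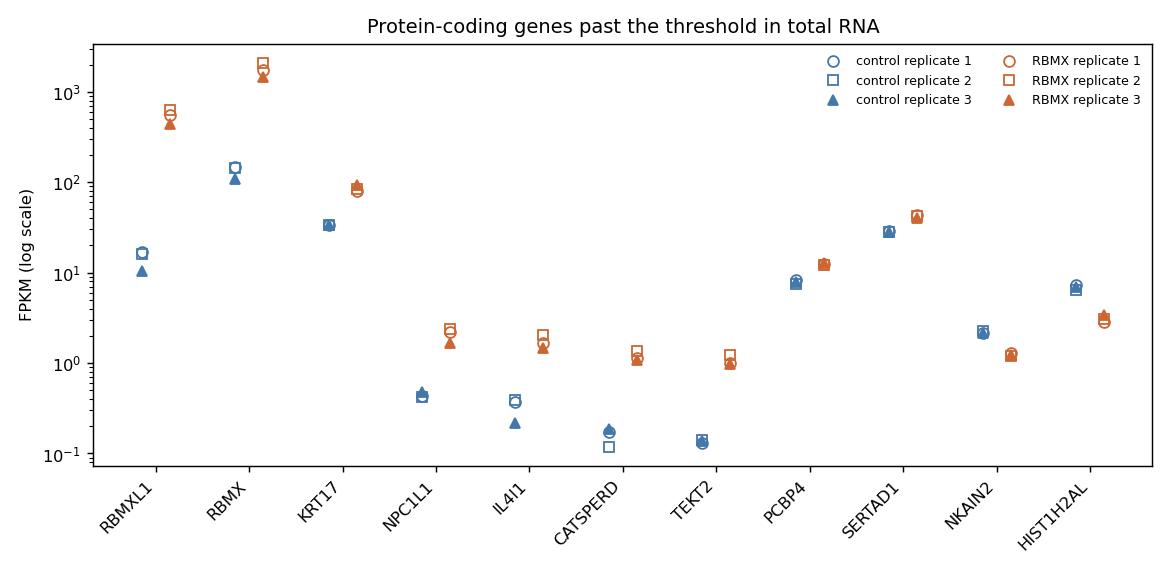
FPKM (log axis) of the 11 protein-coding genes past an adjusted p of 0.05 in total RNA, with blue symbols for the 3 control libraries, orange symbols for the 3 RBMX libraries and filled triangles for replicate 3 of each group. For each of the 11 genes the groups do not overlap, and in RBMXL1 and RBMX they are farthest apart on the fitted scale.

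On the log2(FPKM + 1) scale, the largest differences after RBMX and RBMXL1 were in interferon-stimulated genes, none of which passed the adjusted threshold over all 6 libraries. All 64 listed members were tested, of which 60 reached the minimum in the control libraries alone, and in all 64 the 3 RBMX libraries lay above the 3 controls, against 12.9% of all protein-coding genes. The unadjusted p was under 0.05 in all 64, against 8.49% of all genes, and their adjusted p ranged from 0.17 to 0.25. The median log2 fold change of the list was 1.67 (0.53 to 3.64), against 0.0045 for all genes. The members were chosen with earlier results of these data known, so these shares describe the list and are not a test of it. The size of the response differed within the RBMX group. RBMX replicates 1 and 2 averaged 5.09-fold of the control mean (median over the 64 genes), RBMX replicate 3 was at 1.84-fold, and in all 64 genes RBMX replicate 3 lay above every control and below both other RBMX libraries. In 59 of the 64 genes control replicate 3 was the lowest control, with a median of 0.63 of the mean of the other 2.

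Interferon genes were higher with RBMX too, again least in replicate 3. IFNB1, the type I interferon made by most infected cells, was at 1.22, 0.867 and 0.812 FPKM in controls and at 19.2, 22.1 and 3.19 FPKM with RBMX (log2 fold change 2.67, SE 0.68, limma adjusted p = 0.18). IFNL1, a type III interferon, was at 1.49, 1.06 and 1.13 FPKM in controls and at 30.2, 32.5 and 4.33 FPKM with RBMX (log2 fold change 3.00, SE 0.74, limma adjusted p = 0.18). RBMX replicates 1 and 2 were high for both and replicate 3 was in between. IFNL2 and IFNL3, which are near-identical copies with uncertain division of fragments, ranged from 0.0375 to 0.414 FPKM in controls and from 1.11 to 9.40 FPKM with RBMX. Of the 22 interferon ligand genes listed, 4 were tested and 17 stayed under 0.5 FPKM in all 6 libraries. Among the 4 tested, IFNL2 and IFNL3 averaged under 0.5 FPKM over the control libraries of both fractions. They reached the minimum only through the RBMX libraries, where they are high, so they were not tested independently of that rise. IFNB1, IFNL2 and IFNL3 were chosen after their values were seen.

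Of the receptor genes, IFNAR1 measured 21.2, 20.8 and 25.8 FPKM in controls and 18.9, 20.2 and 20.0 FPKM with RBMX, without overlap between the groups (log2 fold change -0.18, limma adjusted p = 0.36). IFNAR2 measured 21.8, 22.3 and 26.5 FPKM against 20.4, 23.8 and 23.8 FPKM. IFNLR1 measured 5.63, 5.56 and 6.11 FPKM against 5.50, 5.18 and 6.18 FPKM, and in these last 2 genes the groups overlapped. The receptor genes were also chosen after their values were seen.

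Of 3 signalling and transcription factor genes, STAT2 had the largest difference. It measured 15.6, 14.2 and 19.8 FPKM in controls and 65.8, 64.6 and 23.7 FPKM with RBMX (log2 fold change 1.45, SE 0.42, limma adjusted p = 0.19). IRF9, a DNA-binding partner of STAT2, measured 33.7, 30.1 and 25.4 FPKM against 66.4, 66.0 and 42.4 FPKM. IRF7, which drives interferon gene transcription, measured 48.9, 46.7 and 29.7 FPKM against 143, 137 and 69.3 FPKM. The groups did not overlap in any of the 3, and their limma adjusted p lay between 0.17 and 0.19.

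Sensors of foreign RNA were part of the group. DDX58 (RIG-I) measured 16.8, 19.2 and 11 FPKM in controls and 73.5, 86.0 and 29.1 FPKM with RBMX. IFIH1 (MDA5) measured 7.68, 7.98 and 4.54 FPKM against 31.2, 33.9 and 11.5 FPKM. EIF2AK2, the kinase PKR, had the smallest log2 fold change of the 64 genes at 0.53 (29.5, 34.3 and 21.7 FPKM against 41.9, 47.2 and 34.5 FPKM), and its lowest RBMX library was just above its highest control.

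Antiviral effectors were among the genes with large differences. OAS2, which makes the activator of RNase L, measured 5.89, 7.26 and 2.39 FPKM in controls and 128, 143 and 19.2 FPKM with RBMX (log2 fold change 3.64, SE 0.85, limma adjusted p = 0.18). RSAD2 (viperin) measured 15.6, 17.9 and 4.69 FPKM against 207, 225 and 36.6 FPKM. IFIT1, which binds RNA that lacks cap methylation, measured 67.0, 78.3 and 24.9 FPKM against 475, 559 and 132 FPKM. In all 3 genes the third library of each group was the lowest.

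ISG15, the ubiquitin-like modifier, was already at 325, 353 and 218 FPKM in controls and stood at 1810, 1799 and 603 FPKM with RBMX. IFI6, a mitochondrial membrane protein, was higher still, at 425, 482 and 318 FPKM against 2343, 2383 and 959 FPKM. In both, RBMX replicate 3 again lay between the controls and the other RBMX libraries. IFI27 differed from these in its controls, which were level at 21.0, 22.5 and 19.5 FPKM against 244, 249 and 61.7 FPKM with RBMX (log2 fold change 2.84, SE 0.56, limma adjusted p = 0.17). The chemokine genes CCL5 (2.42, 2.24 and 1.84 FPKM against 20.9, 24.5 and 5.36 FPKM) and CXCL10 (0.481, 0.529 and 0.314 FPKM against 6.55, 7.22 and 0.905 FPKM) again had their highest values in RBMX replicates 1 and 2. CXCL10 averaged under 0.5 FPKM over the control libraries of both fractions and reached the minimum only through the RBMX libraries. CXCL10 was therefore not tested independently of that rise.

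**Figure D2:**
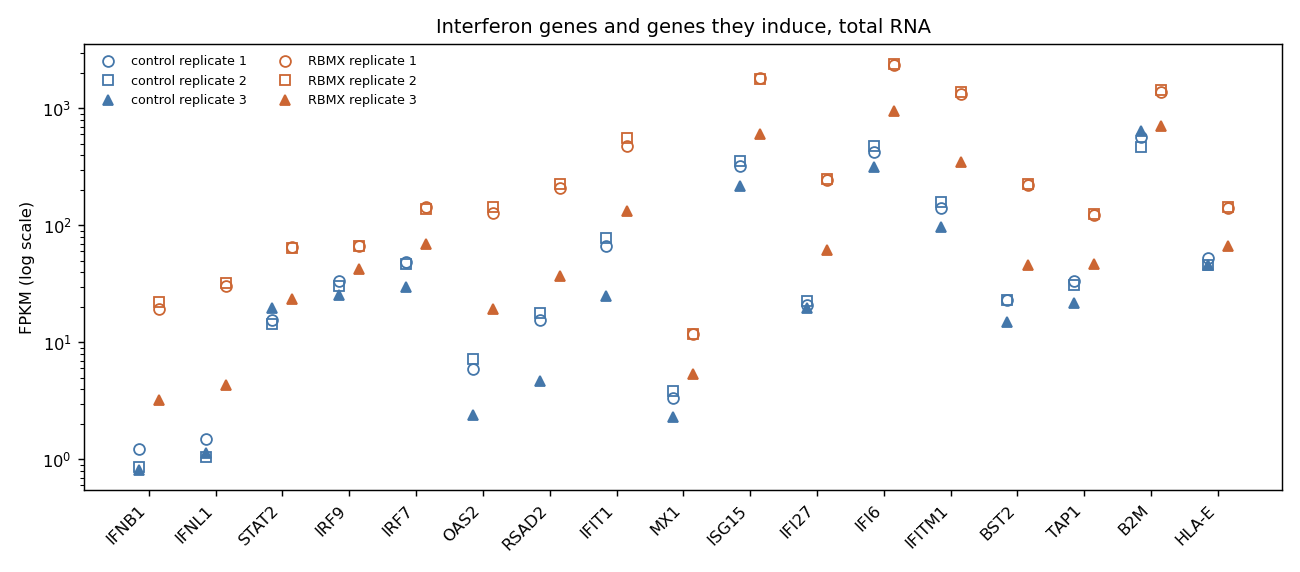
FPKM (log axis) of 17 interferon, interferon signalling, antiviral and antigen presentation genes in total RNA, with blue symbols for control libraries, orange symbols for RBMX libraries and filled triangles for replicate 3 of each group. In each of the 17 genes the 3 RBMX libraries lie above the 3 controls, with RBMX replicate 3 between the other RBMX libraries and the controls.

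Promoter sequences of these genes are shown because the interferon-stimulated genes are known for a shared DNA element. RefSeq promoters (GRCh38.p14, 250 bases before to 50 bases after the start) were found for 50 of the 64 genes. The core of the interferon-stimulated response element, searched as 2 copies of GAAA with 2 bases of any kind between them, on both strands and with overlapping matches allowed, was in 28 of these 50 (56%), against 996 of all 27305 promoters (3.65%) and 278 of the 10629 promoters of protein-coding genes tested (2.62%). It was in 4 of 47 promoters of core spliceosome genes (8.51%). A match of letters is a description of the sequence and was not tied to binding. The windows of 30 bases below lie upstream of the start, on the strand of the gene, with the motif in capitals (it lies on the opposite strand, and so reads as TTTC, in IFIT1 and IFI27). Some of these promoters hold further matches. The windows are shown for genes whose levels are given here or in the plot of interferon genes, at chr10:89392497-89392526 for IFIT1, chr1:1013380-1013409 for ISG15, chr1:27672288-27672317 for IFI6, chr14:94110618-94110647 for IFI27, chr11:313990-314019 for IFITM1 and chr19:17405741-17405770 for BST2. IFI6 and BST2 are on the minus strand and the others on the plus strand.
IFIT1: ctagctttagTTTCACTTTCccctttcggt
ISG15: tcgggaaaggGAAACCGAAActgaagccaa
IFI6: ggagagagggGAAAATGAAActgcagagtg
IFI27: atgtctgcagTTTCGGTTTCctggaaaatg
IFITM1: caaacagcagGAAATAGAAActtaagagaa
BST2: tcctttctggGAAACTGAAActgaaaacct

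Genes of MHC class I presentation, which load peptides for display to T cells, were also higher, by less. All 11 listed members were tested, 9 were higher without overlap between the groups (against 12.9% of all genes) and 11 were higher at an unadjusted p under 0.05 (8.49%), with a median log2 fold change of 1.19 and adjusted p from 0.18 to 0.27. B2M, the invariant light chain, measured 565, 470 and 635 FPKM in controls and 1381, 1441 and 704 FPKM with RBMX. TAP1, a subunit of the peptide transporter and counted with the interferon list, measured 33.5, 31.2 and 21.9 FPKM against 122, 124 and 46.3 FPKM. NLRC5, the transactivator of the class I genes, measured 2.05, 2.17 and 1.98 FPKM against 10.6, 10.8 and 3.91 FPKM. RBMX replicate 3 was below both other RBMX libraries in all 11 members. The division of fragments between HLA genes is uncertain.

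The interferon-stimulated genes showed how the calls depend on RBMX replicate 3. Without it, 150 protein-coding genes passed, 140 higher (1.08%) and 10 lower (0.0771%), and 42 of the 140 were interferon-stimulated genes and 5 were class I genes. Without control replicate 3, 12 genes passed, 10 higher (0.0771%) and 2 lower (0.0154%), with no interferon-stimulated or class I gene among them. Without both, 245 genes passed, 216 higher (1.67%) and 29 lower (0.224%), and 60 of the 216 were interferon-stimulated genes and 6 were class I genes. The median of the interferon list went from 1.67 to 2.09 without RBMX replicate 3, to 1.47 without control replicate 3 and to 1.94 without both. OAS2 had a limma adjusted p of 0.028 without RBMX replicate 3 and of 0.0037 without both. RBMX replicate 3 was the low library in these very genes, so a fit without it is not independent evidence that they changed.

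The calls also depended on the other genes in the fit. With protein-coding genes alone in the fit and in the adjustment, 26 passed (0.200%), 22 higher and 4 lower, and the 11 genes above were all among them. In this fit, 307 genes passed without control replicate 3 (2.37%), 229 without RBMX replicate 3 (1.77%) and 3086 without both (23.8%). The last count rests on 2 libraries against 2. Of the 11 genes, 10 also passed without RBMX replicate 3 over all gene classes and 6 passed without control replicate 3, namely RBMX, RBMXL1, KRT17, CATSPERD, TEKT2 and NKAIN2.

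**Figure D3:**
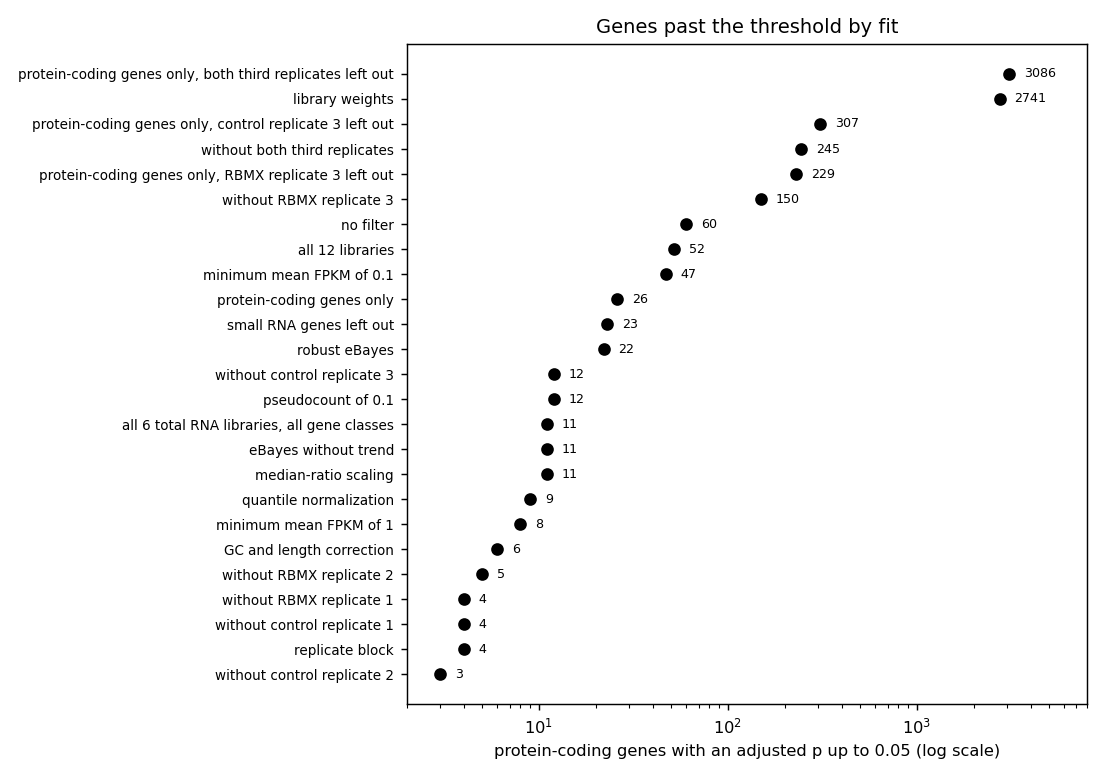
Number of protein-coding genes with an adjusted p up to 0.05 (log axis) in the fit of all 6 total RNA libraries and in 24 alternatives. The count is 11 over all gene classes, 3 to 5 when any one of the first or second replicates is left out, 150 without RBMX replicate 3, 245 without replicate 3 of both groups and 3086 when replicate 3 of both groups is left out of a fit of protein-coding genes alone.

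The fit of protein-coding genes alone added 15 genes. RELB, an NF-κB subunit, measured 2.21, 2.07 and 2.14 FPKM in controls and 3.62, 4.00 and 3.49 FPKM with RBMX (limma adjusted p = 0.043 in this fit and 0.061 over all classes). The stress-induced gene IER3 measured 43.0, 38.4 and 40.5 FPKM against 65.4, 65.4 and 59.3 FPKM (limma adjusted p = 0.045 and 0.073). In both genes the groups did not overlap, and RBMX replicate 3 was the lowest RBMX library. RELB was chosen after its values were seen.

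IER3 belongs to the immediate early genes, which respond to stimuli without new protein synthesis. Of 27 members, 14 did not overlap and were higher (against 12.9% of all genes), 10 were higher at an unadjusted p under 0.05 (8.49%) and none was lower by either measure, with a median log2 fold change of 0.17. Of 23 targets of the ATF4 stress response, 4 were higher (against 8.49% of all genes) and 2 lower (10.6%) at an unadjusted p under 0.05. Their median log2 fold change was 0.02, and -0.12 without control replicate 3. PPP1R15A (GADD34), which restores translation after stress, had the highest log2 fold change of these targets. It was at 78.0, 79.1 and 87.1 FPKM in controls and at 130, 133 and 102 FPKM with RBMX (log2 fold change 0.56, SE 0.12, limma adjusted p = 0.17, and 0.012 without replicate 3 of both groups). Replicate 3 of each group was the library nearest to the other group, so the last fit is not independent evidence of a change.

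Replication-dependent histones, whose messages end in a stem-loop and lack a poly(A) tail, were lower with RBMX. Of 70 genes listed, 47 passed the minimum of 0.5 FPKM, and their median log2 fold change was -0.41. Libraries did not overlap in 31 lower and 2 higher members, against 15.3% and 12.9% of all protein-coding genes. At an unadjusted limma p under 0.05, 26 were lower (against 10.6% of all genes) and 2 were higher (8.49%). The minimum was set on the mean over 12 libraries and so includes polysomal RBMX replicate 2, in which histone levels were far above those elsewhere.

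One histone gene passed the threshold. HIST1H2AL (chr6:27865355-27865747) fell from 7.25, 6.46 and 6.88 FPKM to 2.84, 3.10 and 3.37 FPKM (log2 fold change -0.94, SE 0.07, limma adjusted p = 0.024). It lost its call in 8 of 24 alternative fits, with a highest adjusted p of 0.62 in the fit of all 12 libraries, and without any single library other than RBMX replicate 3 (0.056 without control replicate 3). The linker histone gene HIST1H1E measured 4.86, 7.86 and 5.65 FPKM in controls and 1.63, 1.79 and 1.35 FPKM with RBMX (log2 fold change -1.44, limma adjusted p = 0.087, and 0.030 with protein-coding genes alone). HIST1H4A measured 5.05, 3.58 and 11.2 FPKM against 0.502, 0.342 and 0.567 FPKM, the largest negative log2 fold change of all protein-coding genes tested at -2.25 (SE 0.36, limma adjusted p = 0.15). In contrast to the interferon-stimulated genes, the 3 RBMX libraries were alike. Their median differences from the mean of control replicates 1 and 2 were -0.45, -0.41 and -0.50 on the log2 scale, and control replicate 3 was at 0.04. Histone genes are near-identical copies, so the division of fragments between them is uncertain.

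RMRP and RPPH1, the RNA parts of the RNase MRP and RNase P enzymes, are not protein-coding and also lack a poly(A) tail. RMRP was at 126, 142 and 259 FPKM in controls and 6.93, 7.57 and 12.2 FPKM with RBMX (log2 fold change -4.12, SE 0.34, limma adjusted p = 0.025). RPPH1 was at 46.0, 140 and 153 FPKM against 13.5, 11.4 and 16.7 FPKM (limma adjusted p = 0.16). Whether the amount of RNA without a poly(A) tail that entered each library has a part in the histone result was not tested. In polysomal RNA the histone medians were -0.42, 2.22 and -0.33 in the 3 RBMX libraries and 0.38, -0.30 and 0.06 in the 3 controls, on the same scale as above, so that the groups overlapped. HIST1H2AL was at 79.4 FPKM in polysomal RBMX replicate 2 and at 4.29 and 5.24 FPKM in polysomal replicates 1 and 3, beside 13.5, 5.09 and 7.41 FPKM in polysomal controls.

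**Figure D4:**
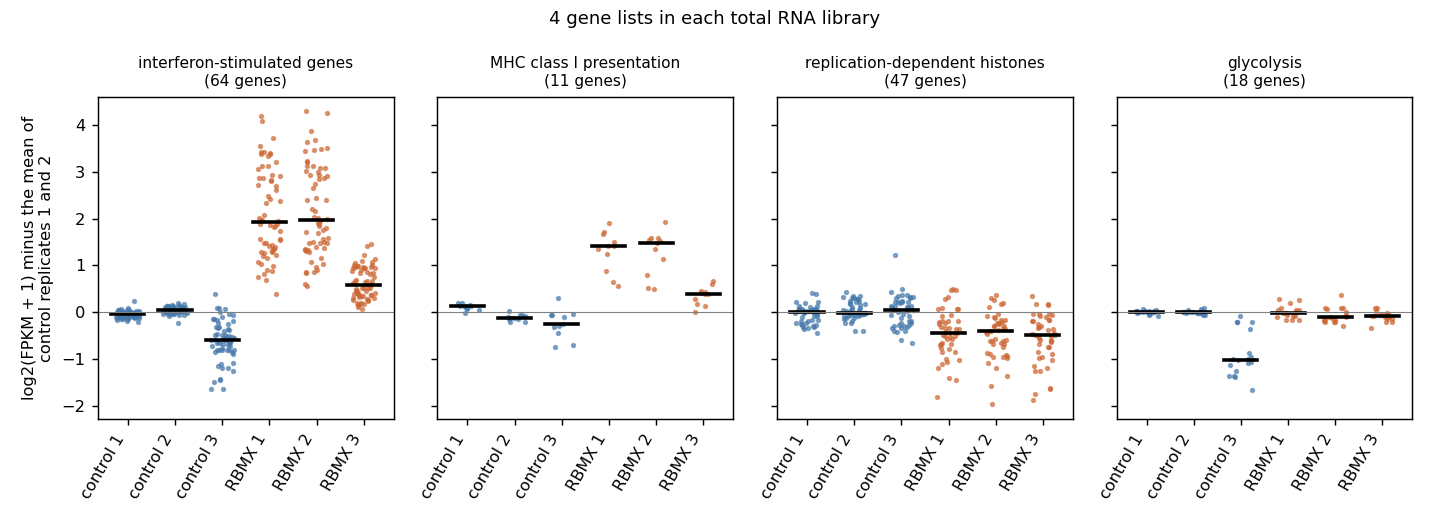
Difference of each gene from the mean of control replicates 1 and 2 on the log2(FPKM + 1) scale in the 6 total RNA libraries, for 64 interferon-stimulated, 11 MHC class I, 47 histone and 18 glycolysis genes (points, control in blue and RBMX in orange) with the median of each library as a black bar. The interferon medians are 1.92 and 1.97 in RBMX replicates 1 and 2 and 0.58 in replicate 3, whereas the histone medians are alike in the 3 RBMX libraries and the glycolysis genes are low in control replicate 3.

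Other lower genes followed no list. GH1, the pituitary growth hormone gene, measured 870, 725 and 364 FPKM in controls and 238, 273 and 209 FPKM with RBMX (log2 fold change -1.36, SE 0.34, limma adjusted p = 0.18, and 0.032 without replicate 3 of both groups). The last fit leaves out the control nearest to the RBMX libraries, so it is not independent evidence of a change. In polysomal RNA, GH1 was at 191, 192 and 647 FPKM in controls and 175, 184 and 152 FPKM with RBMX. Control replicate 3 was thus the lowest control in total RNA and the highest in polysomal RNA. How many GH1 fragments came from plasmid was not tested. INHBE, an activin subunit, measured 2.84, 3.05 and 3.93 FPKM against 1.44, 1.46 and 0.897 FPKM. For FAM172A the values were 10.9, 11.9 and 12.1 FPKM against 5.35, 6.03 and 8.73 FPKM. MTURN, a regulator of neural differentiation, measured 21.9, 23.5 and 23.2 FPKM against 12.4, 12.1 and 18.8 FPKM. In FAM172A and MTURN, RBMX replicate 3 was again the library nearest to the controls.

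None of 14 SR and TRA2 genes, 25 hnRNP genes or 53 core spliceosome genes passed the adjusted threshold, with 3, 0 and 5 of them higher at an unadjusted p under 0.05 (against 8.49% of all genes) and 1, 0 and 0 lower (10.6%). Libraries did not overlap in 5 SR and TRA2 genes, 0 hnRNP genes and 17 core spliceosome genes that were higher (against 12.9% of all genes), and in 1, 0 and 0 that were lower (15.3%). SRSF7 measured 128, 123 and 123 FPKM in controls and 155, 165 and 153 FPKM with RBMX (log2 fold change 0.34, SE 0.06, limma adjusted p = 0.15). PRPF3, a component of the tri-snRNP, measured 21.6, 20.8 and 20.4 FPKM against 31.6, 32.4 and 25.6 FPKM (limma adjusted p = 0.17). The median of the core spliceosome genes was 0.18 over all 6 libraries and 0.09 without control replicate 3, and that of the hnRNP genes was 0.18 and -0.05.

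HOX genes pattern the body axis. Of 36 tested, 12 did not overlap and were lower (against 15.3% of all genes) and 1 was higher (12.9%). At an unadjusted limma p under 0.05, 10 were lower (against 10.6% of all genes) and 1 was higher (8.49%). The median log2 fold change was -0.05 (-0.42 to 0.35), and none was past the adjusted threshold. HOXC10 measured 8.75, 7.51 and 8.14 FPKM in controls and 5.83, 5.98 and 6.28 FPKM with RBMX (log2 fold change -0.38, SE 0.07, limma adjusted p = 0.17). HOXD8 measured 11.6, 11.3 and 13.9 FPKM against 8.33, 8.97 and 9.31 FPKM (log2 fold change -0.42, SE 0.09, limma adjusted p = 0.17). Genes of the damage checkpoint and cohesin, with which RBMX has been linked, had medians of -0.00017 and -0.03. None of the 34 and 14 genes was called, against 0.0694% higher and 0.0154% lower among all genes. At an unadjusted limma p under 0.05, 5 and 1 were higher (against 8.49% of all genes) and 2 and 2 lower (10.6%). Libraries did not overlap in 6 and 2 higher members (12.9%) and in 5 and 2 lower members (15.3%). Without control replicate 3 the cohesin median was -0.15.

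Several list medians rested on control replicate 3. The glycolysis median was 0.23 over all 6 libraries and -0.07 without that library, and the heat shock median was 0.28 and 0.03. The glycolytic enzyme gene PKM measured 692, 682 and 215 FPKM in controls and 658, 598 and 648 FPKM with RBMX, and its log2 fold change went from 0.44 to -0.12 without control replicate 3. The intermediate filament gene VIM, a marker of HEK293, measured 522, 549 and 248 FPKM in controls and between 486 and 519 FPKM with RBMX. The chaperone gene HSPA1A differed from these, with 44.7, 48.8 and 10.1 FPKM in controls and 99.6, 93.1 and 38.7 FPKM with RBMX, so that replicate 3 was low in both groups (limma adjusted p = 0.37, and 0.021 without both). Its coding sequence is shared with a neighbouring copy. The fit without both leaves out the libraries that stood apart in HSPA1A, so it is not independent evidence that this gene changed. The summed FPKM of the 13 HEK293 markers, much of it from VIM, was 1018, 1036 and 564 in controls and 1028, 1005 and 1032 with RBMX. In control replicate 3, 3 of the 13 lay at least 1 log2 unit below the mean of the other 2 controls. Others did not, such as EPCAM (69.1, 59.4 and 63.8 FPKM in controls) and LHX1 (8.16, 7.82 and 9.06 FPKM). PKM was chosen after its values were seen, and what set control replicate 3 apart was not tested.

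**Figure D5:**
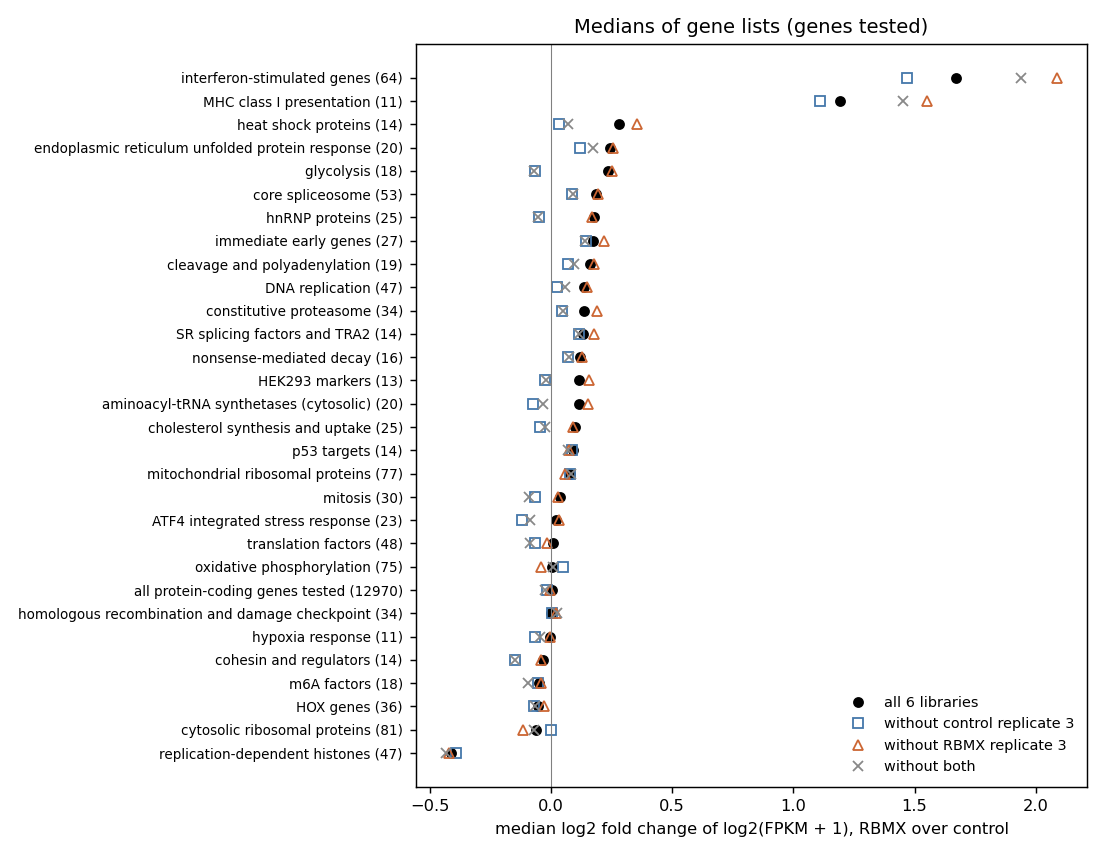
Median log2 fold change of RBMX over control in total RNA for 29 gene lists and for all protein-coding genes tested (number of genes in parentheses), over all 6 libraries (black points), without control replicate 3 (blue squares), without RBMX replicate 3 (orange triangles) and without both (grey crosses). The interferon median stays between 1.47 and 2.09 and the histone median between -0.43 and -0.39, whereas the glycolysis median changes sign without control replicate 3.

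Polysomal RNA of the same cultures is given beside total RNA for the genes and lists above. OAS2 was at 6.0, 6.20 and 2.69 FPKM in polysomal control RNA and at 140, 147 and 21.3 FPKM in polysomal RBMX RNA, so that replicate 3 of each group stood apart in both fractions. RBMX was at 146, 148 and 87.4 FPKM in polysomal control RNA and at 1167, 1328 and 1072 FPKM in polysomal RBMX RNA. The list medians were 1.69 in polysomal RNA and 1.67 in total RNA for interferon-stimulated genes, and 1.12 and 1.19 for class I genes. The total and polysomal libraries of a culture share a lysate, so this is no independent repeat. When the difference between the fractions was tested in one limma model of all 12 libraries, no protein-coding gene was called (0, or 0%), with 39 below 0.05 before adjustment (0.301%). With the culture, which the fractions share, as a block, still 0 were called and 192 were below 0.05 before adjustment (1.48%). The difference (polysomal minus total log2 fold change) was 0.12 for OAS2 (SE 1.25, and 0.096 with the block), -0.46 for RBMX (SE 0.32, and 0.13) and 1.55 for HIST1H2AL (SE 1.2, and 1.08). A difference that misses the threshold does not show that the fractions responded alike.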

How the data were processed

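The authors deposited 1 FPKM value per gene symbol and library, and neither counts nor depth were analysed here. The submitters' processing notes name CASAVA 1.8, TopHat2 2.0.13, Cufflinks 2.2.1, Cuffnorm and hg19, while the study's methods name trimming, alignment to hg38 and DESeq2 on counts. The annotation behind the FPKM values and any scaling between libraries are not given in the sources used here. Columns were matched to samples by name, with 0 left over.

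Symbols were matched to RefSeq (22371 by symbol, 1704 by synonym) or GENCODE 29 (64), and 35 ambiguous and 1094 unmatched symbols were given no class by these tables, apart from small RNA genes known by their symbols. FPKM values were set to log2(FPKM + 1), and genes with a mean of at least 0.5 FPKM over 12 libraries were tested with limma 3.58.1 in R 4.3.3 (lmFit, eBayes with trend, two-sided, Benjamini-Hochberg over all genes tested, threshold 0.05) on the 6 total RNA libraries. The difference between fractions was fitted on all 12. Because an FPKM value is not a count, no count model was applied. Python 3.11.15, pandas 2.3.3 and matplotlib 3.10.9 were used for counts and plots. The fits were tested on simulated data.

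The genes named are RBMX, RBMXL1, RMRP, genes past the threshold, the largest differences without overlap between groups (10 per direction, mean of at least 1 FPKM), the largest called without replicate 3 of either or both groups (5 per direction), and from each gene list members called in any of these fits and the 3 with the smallest p, and the cell markers. Genes outside this rule, or given as examples of a list, were chosen after their values were seen. Members, lists and tests were chosen with earlier results of these data known. Replicates are separate cultures per the study's methods. Alternatives covered pseudocount, minimum, scaling, variance model, library weights, gene classes in the fit, a block for the replicate number, and libraries left out. Fits of protein-coding genes alone without replicate 3, and a loess correction for GC content and transcript length (13729 genes), were added after seeing the data. Results for some items are not reported here.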

Additional observations from a re-analysis of the deposited data

How the results depend on the processing

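The count of 11 protein-coding genes became 47 with a minimum mean of 0.1 FPKM, 60 with no minimum, 22 with robust eBayes, 2741 (1228 higher, 1513 lower) with library weights, 23 without small RNA genes, 26 with protein-coding genes alone, 52 with all 12 libraries in one fit and 6 with a correction for GC content and length. It ranged from 3 to 245 when libraries were left out, and with protein-coding genes alone it was 307 without control replicate 3, 229 without RBMX replicate 3 and 3086 without both. It was 12 with a pseudocount of 0.1, 8 with a minimum of 1 FPKM, 11 with median-ratio scaling, 9 after quantile normalization and 11 without trend. With the replicate number as a block, 4 genes passed. Deviations of same-numbered libraries correlated at 0.374, -0.02 and 0.06. Differently numbered libraries were not set beside them, so this cannot settle whether the numbers pair the cultures. Apart from the block, the fits did not use the numbers as pairs. For PKM the log2 fold change of 0.44 turned to -0.10 with library weights, -0.12 without control replicate 3 and -0.13 without replicate 3 of both groups (-0.12 to 0.73 over single libraries left out), with the same values for protein-coding genes alone. In 1812 refits of 76 genes, 1445 kept direction and side of the threshold, 302 came past it, 60 lost it and 5 turned. RBMX stayed between 3.44 and 3.83 with a highest limma adjusted p of 0.027. The interferon-stimulated genes had no call in the fits of all 6 libraries, other than 63 with library weights and 1 with the replicate block. The library weights were 5.79, 0.83 and 0.14 for control replicates 1, 2 and 3, and 1.36, 1.75 and 0.62 for the RBMX replicates. On the control side, the counts of 2741 and 63 therefore rest mostly on control replicate 1. The difference between fractions gave 0 protein-coding genes in all 14 alternatives, while the culture as a block gave 192 at an unadjusted p under 0.05. Depth is unknown, so genes near 1 FPKM have no counting interval, and the causes of these changes were not tested.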
